A study of Mus musculus with 12 samples.

Results

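The transcripts of 9 enzymes and cofactors that write, copy and remove cytosine methylation were followed across 12 expression arrays of mouse gonadal white fat. The 9 genes were taken by function, with no threshold on their values: the dioxygenase genes Tet1, Tet2 and Tet3, the DNA methyltransferase genes Dnmt1, Dnmt3a and Dnmt3b, the methyltransferase cofactor gene Uhrf1, and the glycosylase genes Tdg and Mbd4. They are 9 of 20887 genes that could be named on the array, and 18 of its 55681 distinct probes target them. All 18 probes were well above background on at least 3 of the 12 arrays, the minimum for a probe to be tested, and 17 of the 18 were above background on all 12.

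The tissue came from male C57BL/6N mice between 59 and 67 days of age, in 4 genotypes bred from a Gadd45a mutant and an Ing1 mutant line. WT mice carried neither mutation, Gadd45a-KO mice were Gadd45a-/-, Ing1-KO mice were Ing1-/-, and DKO mice were Gadd45a-/-;Ing1-/-. Each genotype had 3 arrays, and each array held RNA pooled from 3 of 9 mice, so that the spread between arrays is one between pools and not between single animals. The deficiencies were not restricted to fat by any stated promoter or Cre, and whole fat was used, which holds adipocytes, vessels, stromal cells and leukocytes.

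DNMT3A and DNMT3B place methyl groups on unmethylated CpG sites, while DNMT1, brought to newly replicated DNA by UHRF1, copies the marks of the parental strand. TET1, TET2 and TET3 oxidise 5-methylcytosine to hydroxymethylcytosine and further products, the last of which TDG cuts out for base excision repair. MBD4 is a second glycosylase, acting on the thymine left when methylated cytosine is deaminated. GADD45A is an adaptor that brings TET and TDG to chromatin, and ING1 is a reader of trimethylated lysine 4 of histone H3 that has been described as a guide for GADD45A. Whether losing one or both changes the fat transcriptome is the question the 4 genotypes address.

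Promoter sequence is shown for the 4 genes whose transcripts were lower without Ing1 by the test described further on. It is RefSeq sequence on the mouse build GRCm38.p6, written 5′ to 3′ on the strand of the gene. All 9 genes had an entry. For Tet1 and Dnmt3b the 250 bases before the transcription start are given, at chr10:62887325-62887574 (minus strand) and chr2:153649199-153649448 (plus strand), and capitals mark the GC box GGGCGG or its complement CCGCCC. For Dnmt1 and Uhrf1 only the 30 bases around a match are given, at chr9:20952824-20952853 (minus strand) and chr17:56304117-56304146 (plus strand), and capitals mark the E2F spelling TTTCGCGC or its complement GCGCGAAA.
Tet1: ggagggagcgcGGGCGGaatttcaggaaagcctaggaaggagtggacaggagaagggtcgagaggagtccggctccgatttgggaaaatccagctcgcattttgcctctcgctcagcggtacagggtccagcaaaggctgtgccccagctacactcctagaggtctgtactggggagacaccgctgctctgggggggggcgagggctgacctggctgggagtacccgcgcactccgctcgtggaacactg
Dnmt3b: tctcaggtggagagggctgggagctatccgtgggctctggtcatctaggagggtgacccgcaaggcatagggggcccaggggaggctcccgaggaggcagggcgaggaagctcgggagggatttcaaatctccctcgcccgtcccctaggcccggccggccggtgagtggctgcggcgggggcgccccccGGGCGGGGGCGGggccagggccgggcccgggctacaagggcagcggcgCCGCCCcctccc
Dnmt1: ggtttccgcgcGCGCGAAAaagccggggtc
Uhrf1: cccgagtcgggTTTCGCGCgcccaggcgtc

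The 250-base windows of the 9 genes held between 15 CpG sites (Tet1) and 51 (Tet2), against a median of 6 over the 32851 windows of that length in the RefSeq table. For genes with several starts the window richest in CpG was taken. An E2F site was searched on both strands as any of the 4 spellings TTTCGCGC, TTTGGCGC, TTTCCCGC and TTTGCCGC, which 1.86% of all windows hold, and it was present in the windows of Dnmt1 and Uhrf1 and in none of the other 7. E2F factors are known as regulators of genes of DNA replication. In both genes the spelling was TTTCGCGC, held by 0.256% of all windows, on the minus strand of the Dnmt1 window and the plus strand of the Uhrf1 window. The E2F shares are over all windows, most of them poorer in CpG. By CpG count the Dnmt1 and Uhrf1 windows stood at percentiles 91.4 and 94.8. Since each spelling holds CpG itself and the richest window was taken, these shares are no matched background. GGGCGG is common, with 32.7% of windows holding it on one strand or the other. A match describes the letters of the window and is no measure of binding.

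The 12 arrays lay on 3 slides with 1 array of each genotype on each replicate's slide, and each had between 58.2% and 68.1% of its spots well above background, the dimmest being WT replicate 2. Ing1, measured by 3 probes, was lower in both groups labelled as lacking it; its brightest probe had a mean log2 signal of 12.46 in WT, 12.55 in Gadd45a-KO, 9.40 in Ing1-KO and 9.32 in DKO. The single Gadd45a probe was higher, not lower, in both groups labelled as lacking that gene (9.51 in WT, 10.17 in Gadd45a-KO, 9.20 in Ing1-KO and 10.61 in DKO). Whether the mutation removes the stretch that this probe detects is unknown here, so it does not check the label, and Gadd45a-KO and DKO below name arrays as they were labelled. Skeletal muscle transcripts stood apart on 3 arrays, all on slide 1: their mean deviation, in log2 units, was 4.12 on Ing1-KO replicate 1, 2.39 on DKO replicate 1 and 1.51 on Gadd45a-KO replicate 1, and at or below -0.38 on the other 9. White adipocyte transcripts were present as labelled, with 12 of 12 listed markers above background on all arrays.

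Signal below is log2 of the processed intensity after each array was scaled to a common 75th percentile. It is compared only within a probe, because probes hybridise with different strength, and a gene with several probes is given by its brightest. Differences were tested with limma over 31453 genes and unnamed probes, fitted to all 12 arrays, and called where the Benjamini-Hochberg adjusted p was under 0.05. Contrasts that share arrays are not independent of each other.

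The genes called were Tet1, Dnmt1, Dnmt3b and Uhrf1, each in comparisons in which Ing1 differed, and the other 5 of the 9 were not called in any comparison by the test as described. Averaged over both Gadd45a backgrounds, the 6 arrays without Ing1 had lower Tet1, Dnmt1, Dnmt3b and Uhrf1 than the 6 arrays with it, 4 of 9 genes, where 16% of all tested features were called and 9.09% were called lower. The median log2 difference of the 9 was -0.39, beside -0.04 over all features, and all 9 differences were below 0, as were 55.4% of all; Tdg and Tet3, the smallest, turned to 0.04 and 0.02 when arrays were centred on their medians. That scaling also left 2 of the 9 called, Tet1 and Dnmt3b (Uhrf1 and Dnmt1 at limma adjusted p = 0.0521 and 0.0643). Of all called features 43.3% were higher without Ing1, and 63.7% after median centring.

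All 4 calls were lost in each of a pair of other fits. With array column on the slide as a block, 0 of the 9 genes and 39 of all features were called, and without the 3 muscle-bearing arrays 0 of the 9 and 1 of all. Array column is partly tied to genotype: column 4 held 2 arrays with Ing1 and 0 without, and column 3 held 1 with and 3 without. The part of array position in the differences cannot be fully told apart from that of genotype. The differences kept their sign in both fits for Tet1, Dnmt1, Dnmt3b and Uhrf1 (with array column -0.40 for Dnmt1, -0.43 for Dnmt3b and -0.47 for Uhrf1).

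In 3 of the 9 genes, Tet1, Tet2 and Dnmt3b, every array without Ing1 lay below every array with it, which was so for 4.91% of all features. In bulk tissue, fewer cells of a type that carries a transcript cannot be told apart from less of it per cell.

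Within the Gadd45a-deficient background, DKO arrays had the same 4 genes lower than Gadd45a-KO arrays, 4 of 9 where 15% of features were called and 8.47% were called lower. Of all calls 43.4% were higher, and 59% after median centring. The median of the 9 was -0.52, beside -0.03 over all. The groups did not overlap in 5 of the 9 genes, Tet1, Tet2, Dnmt1, Dnmt3b and Uhrf1 being lower on every DKO array than on every Gadd45a-KO array, as were 20.8% of all features.

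Against WT, DKO arrays had 1 of the 9 genes called, Tet1, where 0.162% of features were called, 51% of them higher (71.4% after median centring). Here too Tet1, Tet2, Dnmt1, Dnmt3b and Uhrf1 lay below WT on every DKO array, as did 12.6% of features, and the median of the 9 was -0.38, beside -0.04 over all. Ing1-KO arrays against WT gave 0 of 9 calls by limma, where 0.00318% of features were called, Ing1 itself alone. Of the 9, Tet1 and Dnmt3b had an unadjusted p under 0.05, as had 8.6% of features. Tet1, Tet2 and Dnmt3b were lower on every Ing1-KO array than on every WT array, as were 10.2% of features, and the median of the 9 was -0.20.

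**Figure D1:**
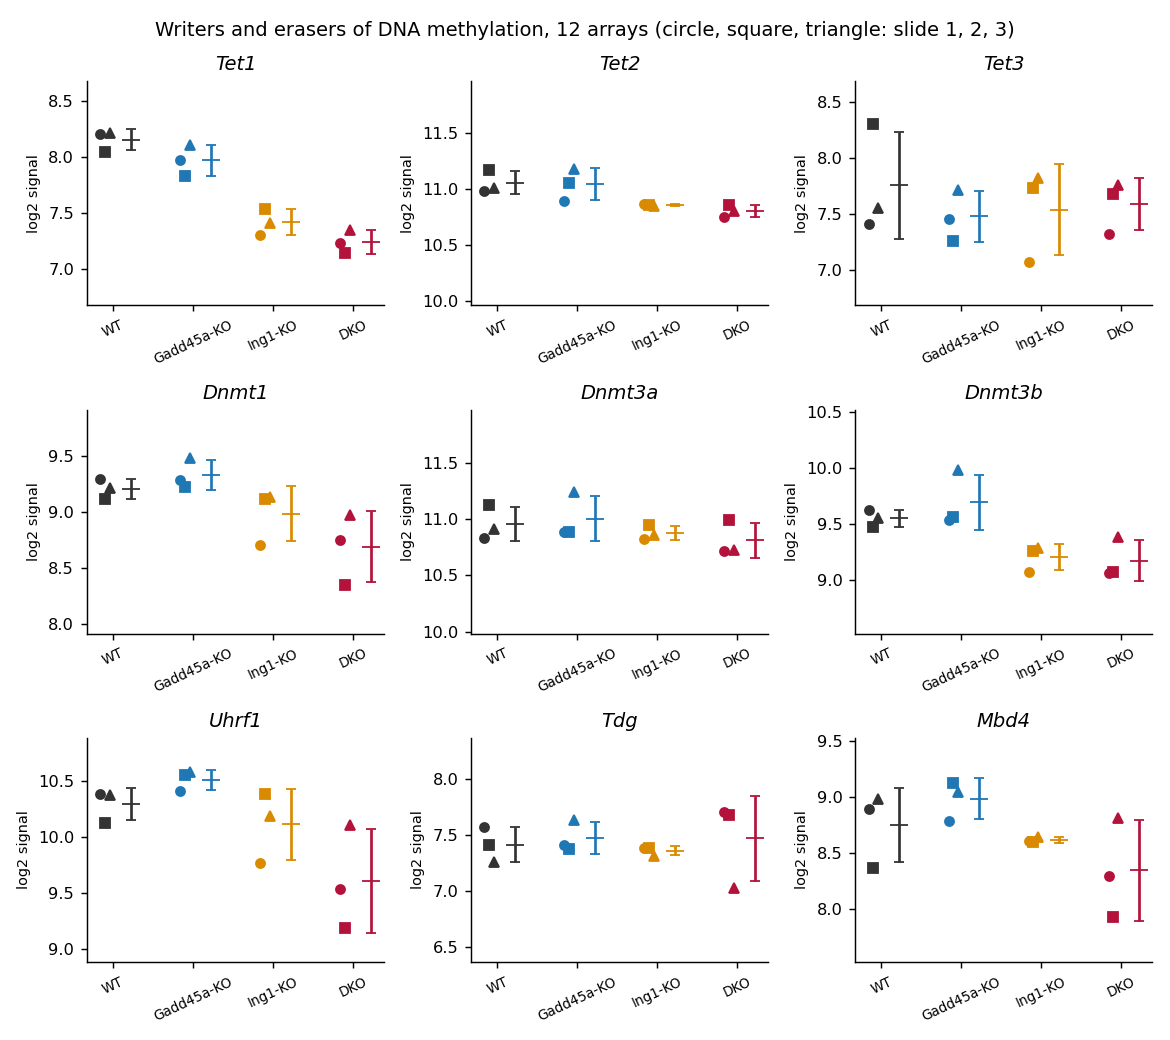
Log2 signal (vertical axes) of the brightest probe of each of the 9 genes on the 12 arrays, by genotype, with 1 panel a gene. Circles, squares and triangles are slides 1, 2 and 3, bars are the mean ± SD of 3 arrays, and the 6 Tet1 arrays without Ing1 lie between 7.14 and 7.54, below the 6 with it, between 7.83 and 8.22.

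Tet1, the founding member of the TET dioxygenases, showed the clearest difference. Its signal was 8.20, 8.05 and 8.22 on the WT arrays, 7.98, 7.83 and 8.11 on Gadd45a-KO, 7.31, 7.54 and 7.41 on Ing1-KO, and 7.24, 7.14 and 7.35 on DKO (replicates 1, 2 and 3). No array without Ing1 reached the lowest array with it. Group means (± SD, n = 3) were 8.16 ± 0.09 in WT, 7.97 ± 0.14 in Gadd45a-KO, 7.42 ± 0.11 in Ing1-KO and 7.24 ± 0.10 in DKO.

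Across the 6 arrays without Ing1 and the 6 with it, Tet1 fell by 0.73 ± 0.10 on the log2 scale (SE; 95% interval -0.94 to -0.52), that is 1.66-fold, with a limma adjusted p of 0.00328, the 57th smallest p of all features. The difference was close to the same in both backgrounds, -0.74 ± 0.14 for Ing1-KO against WT and -0.73 ± 0.14 for DKO against Gadd45a-KO, and the interaction between the losses was 0.01 ± 0.19. The adjusted p was 0.286 in the first (unadjusted rank 16 of 31453) and 0.0126 in the second. DKO against WT gave -0.91 ± 0.14, a 1.88-fold lower signal, with an adjusted p of 0.0356.

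The order of Tet1 from high to low was WT, Gadd45a-KO, Ing1-KO, DKO. Its outer neighbours did not differ by the test, with -0.18 ± 0.14 for Gadd45a-KO against WT (limma adjusted p = 1) and -0.18 for DKO against Ing1-KO (limma adjusted p = 0.948). Within slides 1, 2 and 3, the Ing1 difference of Tet1 was -0.82, -0.60 and -0.78. The call for the 6 arrays against 6 held without each of the 12 arrays in turn (adjusted p 0.00239 to 0.0131), but was lost with array column on the slide as a block (adjusted p = 0.0564) and without the 3 muscle-bearing arrays (-0.70 ± 0.13, adjusted p = 0.0736). The DKO against Gadd45a-KO call was lost without Gadd45a-KO replicate 3 (adjusted p = 0.0532), and the DKO against WT call held in 4 of the 12 fits, those without WT replicate 2, Gadd45a-KO replicate 3, Ing1-KO replicate 1 or DKO replicate 3.

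Tet2, which in blood cells is the best known TET through its frequent mutation in leukaemia, differed little. Its signal was 10.99, 11.17 and 11.01 on WT arrays, 10.89, 11.05 and 11.18 on Gadd45a-KO, 10.86, 10.86 and 10.85 on Ing1-KO, and 10.75, 10.86 and 10.80 on DKO. All 6 arrays without Ing1 lay under all 6 with it, by a narrow margin. The difference was -0.22 ± 0.07 with a limma adjusted p of 0.0587, which misses the threshold, and it passed with slide as a block (adjusted p = 0.0481). DKO against Gadd45a-KO gave -0.24 with a limma adjusted p of 0.128.

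Tet3, the TET of the early embryo and of many adult tissues, was not called in any comparison. Signal of its brightest probe was 7.41, 8.30 and 7.55 on WT arrays, 7.46, 7.26 and 7.71 on Gadd45a-KO, 7.07, 7.73 and 7.82 on Ing1-KO, and 7.32, 7.68 and 7.75 on DKO. The groups overlapped on this probe, and the single WT array at 8.30 was the highest of all 12. The Ing1 difference was -0.05 ± 0.19 (limma adjusted p = 0.87), and its sign was not the same on each slide, with -0.24, -0.08 and 0.16. Tet3 and Mbd4 lie on the chromosome of Gadd45a, Tet3 within 20 Mb of it by the RefSeq table, and none of the 9 lies on the chromosome of Ing1.

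Dnmt1 and Uhrf1, the pair that copies methylation at replication, were lower together. Dnmt1 had signals of 9.30, 9.12 and 9.22 on WT arrays, 9.29, 9.23 and 9.48 on Gadd45a-KO, 8.71, 9.12 and 9.14 on Ing1-KO, and 8.75, 8.35 and 8.97 on DKO. The DKO arrays lay below all WT and all Gadd45a-KO arrays, whereas 2 of the 3 Ing1-KO arrays lay at the lower edge of WT. Uhrf1 had signals of 10.38, 10.12 and 10.37 on WT arrays, 10.41, 10.55 and 10.57 on Gadd45a-KO, 9.77, 10.38 and 10.19 on Ing1-KO, and 9.53, 9.19 and 10.11 on DKO. DKO replicate 2 was the lowest array for both genes, and Ing1-KO replicate 2 was level with the highest WT array for Uhrf1.

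The DKO against Gadd45a-KO difference was -0.90 ± 0.21 for Uhrf1 (1.87-fold lower, limma adjusted p = 0.023) and -0.64 ± 0.17 for Dnmt1 (limma adjusted p = 0.033). Over the 6 arrays without and the 6 with Ing1, Uhrf1 fell by 0.54 ± 0.15 (limma adjusted p = 0.0343) and Dnmt1 fell by 0.43 ± 0.12 (limma adjusted p = 0.0355). In the background with Gadd45a the differences were small and not called, -0.18 for Uhrf1 and -0.22 for Dnmt1 in Ing1-KO against WT. The interaction that compares these backgrounds was -0.72 ± 0.30 for Uhrf1 (unadjusted p = 0.0346) and -0.42 ± 0.24 for Dnmt1, both with a limma adjusted p of 0.728, so a difference between the backgrounds was not shown. DKO against WT gave -0.68 ± 0.21 for Uhrf1 and -0.52 ± 0.17 for Dnmt1, with limma adjusted p of 0.109 and 0.121.

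Both calls rested on single arrays more than that of Tet1, and were lost with array column as a block and without the muscle-bearing arrays, as given above. Over 6 against 6 arrays, Uhrf1 was called in 4 of the 12 fits without 1 array (without WT replicate 2, Gadd45a-KO replicate 1, Ing1-KO replicate 2 or DKO replicate 3) and Dnmt1 in 2 (without WT replicate 2 or DKO replicate 3). In the remaining fits the limma adjusted p ran from 0.0614 to 0.0836 for Uhrf1 and from 0.0506 to 0.0859 for Dnmt1, and the differences from -0.67 to -0.44 and from -0.50 to -0.35 over all 12. Within slides 1, 2 and 3 the Ing1 difference was -0.75, -0.55 and -0.33 for Uhrf1, and -0.56, -0.44 and -0.30 for Dnmt1. DKO against Gadd45a-KO kept its call for Uhrf1 in 8 of 12 fits and for Dnmt1 in 7 of 12; both lost it without Gadd45a-KO replicate 2, Gadd45a-KO replicate 3, DKO replicate 1 or DKO replicate 2, and Dnmt1 also without Gadd45a-KO replicate 1.

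Dnmt3b, a de novo methyltransferase most abundant in the early embryo, was lower without Ing1 over 6 against 6 arrays and in DKO against Gadd45a-KO, and was not called in Ing1-KO against WT. Its signal was 9.63, 9.48 and 9.55 on WT arrays, 9.54, 9.56 and 9.98 on Gadd45a-KO, 9.07, 9.26 and 9.29 on Ing1-KO, and 9.07, 9.07 and 9.39 on DKO. All 6 arrays without Ing1 lay below all 6 with it, the nearest being DKO replicate 3 and WT replicate 2. The difference of 6 against 6 was -0.43 ± 0.10 with a limma adjusted p of 0.0208, and on slides 1, 2 and 3 it was -0.52, -0.35 and -0.43. DKO against Gadd45a-KO gave -0.52 ± 0.15 (limma adjusted p = 0.0369) and Ing1-KO against WT -0.35 ± 0.15 (limma adjusted p = 0.574), with an interaction of -0.17 ± 0.21 (95% interval -0.62 to 0.28, limma adjusted p = 0.821).

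The 6 against 6 call of Dnmt3b held in 11 of the 12 fits without 1 array and was lost without Ing1-KO replicate 1 (adjusted p = 0.0555), with array column as a block (adjusted p = 0.0885), without the muscle-bearing arrays (adjusted p = 0.118) and with each of 3 marker covariates described further on. In DKO against Gadd45a-KO it held in 6 of 12, and was lost without replicate 2 or 3 of Gadd45a-KO or Ing1-KO and without replicate 1 or 2 of DKO.

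Dnmt3a, the de novo methyltransferase of most adult tissues, did not differ between genotypes by the test. Its signal was 10.84, 11.13 and 10.92 on WT arrays, 10.89, 10.89 and 11.24 on Gadd45a-KO, 10.83, 10.95 and 10.86 on Ing1-KO, and 10.72, 10.99 and 10.73 on DKO. The groups overlapped throughout. The Ing1 difference was -0.14 ± 0.09 (limma adjusted p = 0.322).

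Tdg, the glycosylase that removes the oxidised bases TET enzymes make, had the smallest difference of the 9. Its signal was 7.57, 7.41 and 7.26 on WT arrays, 7.41, 7.37 and 7.64 on Gadd45a-KO, 7.38, 7.39 and 7.31 on Ing1-KO, and 7.70, 7.68 and 7.03 on DKO. DKO held both the highest and the lowest of the 12 arrays. The Ing1 difference was -0.03 ± 0.13 (limma adjusted p = 0.905), with a 95% interval of -0.32 to 0.26.

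Mbd4 followed the maintenance pair in direction without passing the test. Signal was 8.89, 8.37 and 8.99 on WT arrays, 8.79, 9.13 and 9.05 on Gadd45a-KO, 8.61, 8.60 and 8.65 on Ing1-KO, and 8.30, 7.93 and 8.82 on DKO. The lowest array was again DKO replicate 2, and WT and DKO each spanned a range that held all 3 Ing1-KO arrays. The Ing1 difference was -0.39 ± 0.16 (limma adjusted p = 0.108) and that of DKO against Gadd45a-KO -0.64 ± 0.22 (limma adjusted p = 0.0672). The second passed with slide as a block (adjusted p = 0.044).

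**Figure D2:**
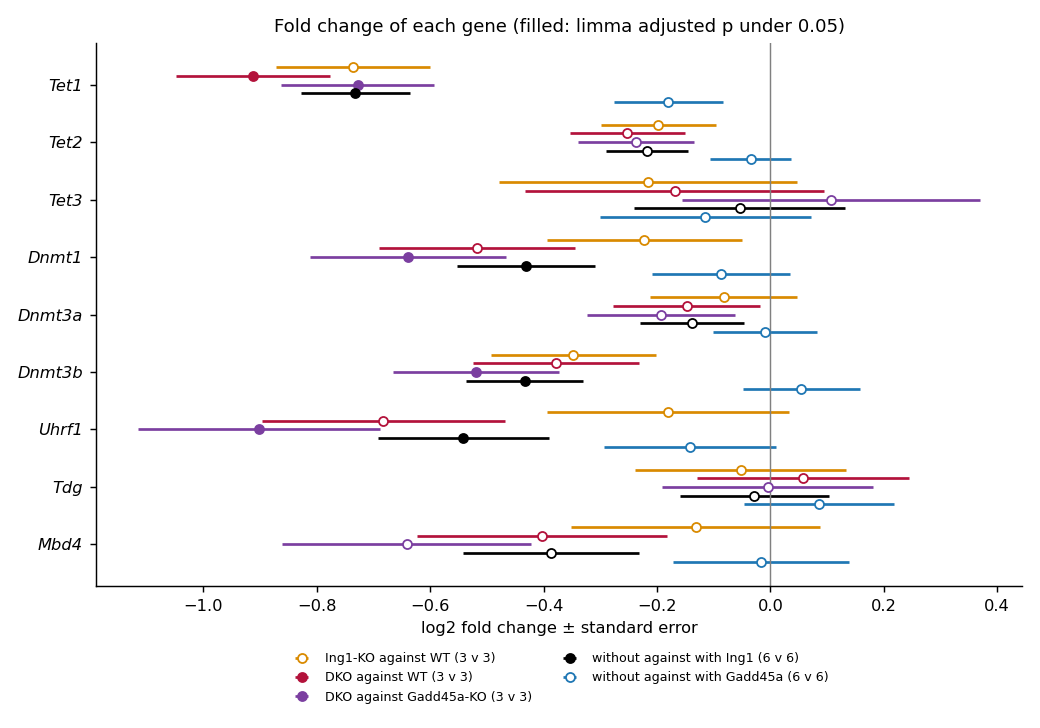
Log2 fold change (horizontal axis, with its standard error as the bar) of each of the 9 genes in 5 comparisons, given by colour: Ing1-KO against WT, DKO against WT, DKO against Gadd45a-KO, and the averaged losses of Ing1 and of Gadd45a, a filled point marking a limma adjusted p under 0.05. The points for loss of Ing1 lie left of 0 for Tet1, Dnmt1, Dnmt3b and Uhrf1, down to -0.91 for Tet1 in DKO against WT, while Tdg and Tet3 lie about 0.

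The comparisons that turned on Gadd45a gave 0 calls among the 9 genes by limma. In Gadd45a-KO against WT, 0% of features were called and 0 of the 9 genes had an unadjusted p under 0.05, which 2.35% of features had; Uhrf1 was the only one whose groups did not overlap, being higher on all 3 arrays labelled Gadd45a-KO, where 8.13% of features did not overlap in either direction. In DKO against Ing1-KO 0.00318% of features were called, the Gadd45a probe alone, which was higher in DKO. Of the 9 genes only Uhrf1 (-0.50 ± 0.21, limma adjusted p = 0.948) was among the 3.51% of features with an unadjusted p under 0.05. Averaged over both Ing1 backgrounds, the 9 differences for loss of Gadd45a lay between -0.18 and 0.09 with 0 at an unadjusted p under 0.05 (0.935% of features). Here 0.00318% of features were called, again the Gadd45a probe alone, higher on the arrays labelled as lacking it. The largest of the 9 differences, in Tet1, was -0.18 ± 0.10. The interaction called 0% of features by limma, and 1 of the 9, Uhrf1, was among the 5.93% of features with an unadjusted p under 0.05.

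The 18 probes were also tested one by one among 36495 probes, of which 16.4% were called for loss of Ing1. The second Tet1 probe, A_51_P512172, differed less than the first, A_55_P2122997: its means were 7.01, 6.93, 6.74 and 6.66 in WT, Gadd45a-KO, Ing1-KO and DKO, with a difference of -0.27 ± 0.11 (limma adjusted p = 0.118). Which part or transcript of Tet1 each probe covers was not analysed here. Of the 3 Dnmt3b probes, A_55_P2130535 and A_55_P1975903 were called, the latter at -0.37 ± 0.08 (limma adjusted p = 0.0147), and A_55_P2008874 was at -0.23 ± 0.11 (limma adjusted p = 0.15). The 3 Tet3 probes gave -0.05, -0.17 and -0.42 and the 3 Tdg probes -0.03, -0.09 and -0.15, and these 6 were not called. In DKO against WT the Tet3 probes were at -0.17, -0.42 and -0.81 (A_55_P2175260, A_52_P491273 and A_51_P199339), with limma adjusted p of 0.737, 0.212 and 0.119. On A_52_P491273 signal was 6.99, 6.91 and 6.93 in WT, 6.76, 6.65 and 6.62 in Gadd45a-KO, 6.39, 6.72 and 7.17 in Ing1-KO, and 6.70, 6.39 and 6.48 in DKO. All 6 arrays labelled Gadd45a-KO or DKO lay below all 3 WT arrays on this probe, while Ing1-KO spanned them. Among the 31453 features, 8.13% did not overlap between Gadd45a-KO and WT in either direction. On every DKO array 12.6% of features were lower than on every WT array. The share of probes lower in both groups at once was not counted. For this probe Gadd45a-KO against WT gave -0.27 ± 0.19 (limma unadjusted p = 0.186). The 3 Tet3 probes differed in the size of their differences, and none was called. The second Tet2 probe was at -0.11.

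One of the Uhrf1 probes, A_66_P120074, was dim: it was well above background on 1 WT, 2 Gadd45a-KO, 1 Ing1-KO and 0 DKO arrays. Its level in DKO is therefore only a bound, 4.15 in log2 signal, with a measured mean of 3.12. The Gadd45a-KO mean was 4.22 over all 3 arrays, only 2 of them above background, so no least fold over the bound is given. The bound takes, for each DKO array, the lowest signal well above background or the probe's own, whichever is higher. For WT and Ing1-KO the bound gave no fold either.

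**Figure D3:**
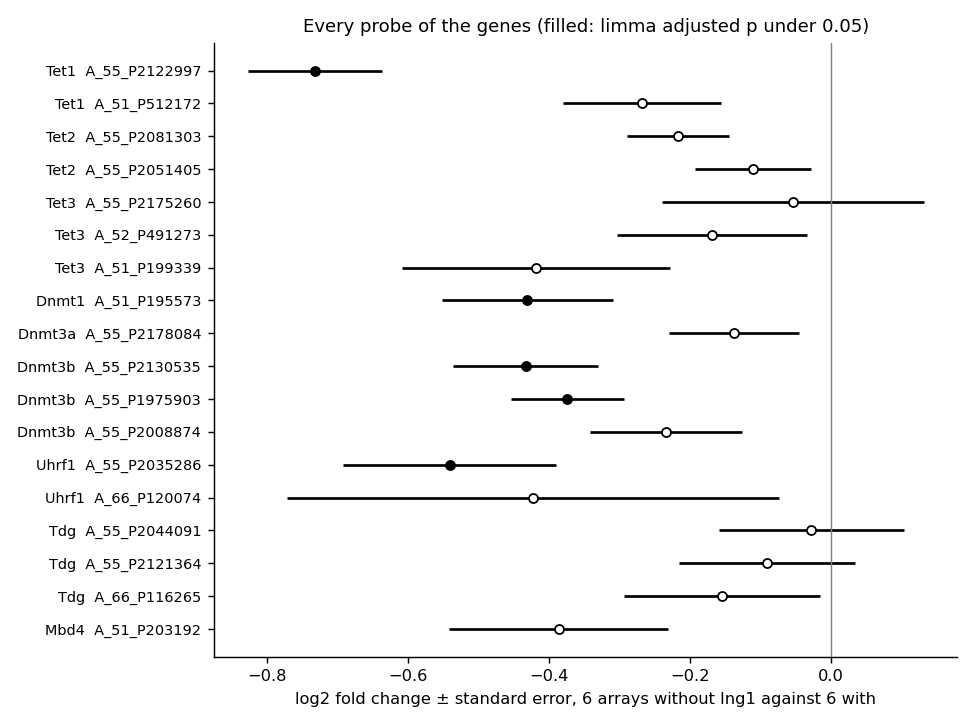
Log2 fold change with its standard error (horizontal axis) of each of the 18 probes, for the 6 arrays without Ing1 against the 6 with it; a filled point has a limma adjusted p under 0.05. The brightest Tet1 probe is farthest from 0 at -0.73, and 2 of the 3 Dnmt3b probes are filled.

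Markers of other cells moved with the same contrast. Among T cell markers, 6 of 9 tested fell without Ing1 (median -0.73), where 9.09% of all features were called lower, as did 6 of 15 markers of dividing cells (median -0.55), 6 of 8 of neutrophils (median -1.86), 3 of 9 of macrophages (median -0.42) and 1 of 7 of B cells (median -0.48). Of the white adipocyte markers 3 of 12 rose (median 0.47), where 6.93% of all features were called higher, and of adipocyte progenitors 0 of 10 were called by limma in either direction. The neutrophil markers stood highest on the Gadd45a-KO arrays. Their median log2 difference was 2.84 for Gadd45a-KO against WT and -0.23 for Ing1-KO against WT. All 9 T cell markers, 15 markers of dividing cells and 7 B cell markers were above background on all 12 arrays. Of 9 mesothelium genes 4 were so on all 12, and Msln, Upk3b, Upk1b and Wt1 on 0. Of 12 genes of epididymis and testis, Defb42 and Prm2 were so on all 12 and 7 on 0. Tet3 had an r of 0.850 with the mean of the 4 epididymis and testis genes measured (0.928 after subtraction of genotype means). WT replicate 2, highest in Tet3, was highest in that mean (0.60). The part of such tissue in the Tet3 signal was not tested.

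The summed linear signal of the T cell markers ran from 70870 to 95240 in WT, 86060 to 109200 in Gadd45a-KO, 51450 to 79200 in Ing1-KO and 27380 to 67390 in DKO. That of dividing cells ran from 18370 to 23910 in WT, 24300 to 27490 in Gadd45a-KO, 17550 to 40490 in Ing1-KO and 12840 to 21400 in DKO. For white adipocytes it was 1021000 to 1662000 in WT, 945400 to 1135000 in Gadd45a-KO, 1181000 to 1311000 in Ing1-KO and 1220000 to 1719000 in DKO. DKO replicate 2, lowest of all arrays in Dnmt1, Uhrf1 and Mbd4, was also lowest in the T cell and dividing-cell means.

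Uhrf1 and Dnmt1 tracked the T cell, B cell and dividing-cell markers closely. Over the 12 arrays, which share their slides and scaling, Pearson's r with the T cell mean was 0.962 for Uhrf1, 0.962 for Dnmt1, 0.880 for Mbd4, 0.831 for Dnmt3b and 0.800 for Tet1, and after subtraction of the genotype means it was 0.916, 0.900, 0.777, 0.677 and 0.789. With the dividing-cell mean r was 0.966 for Uhrf1, 0.880 for Dnmt1 and 0.638 for Tet1 (0.960, 0.797 and 0.742 within genotypes). Tet2 was less close, with 0.573 for T cells over the arrays and -0.08 within genotypes. With the B cell mean r was 0.931 for Uhrf1, 0.931 for Dnmt1 and 0.908 for Mbd4. For Uhrf1 and Dnmt1 it was 0.503 and 0.559 with macrophages and 0.440 and 0.413 with neutrophils. With endothelium it was -0.841 and -0.835 for these genes. Mbd4 and Uhrf1 ran against the white adipocyte mean, with r of -0.917 and -0.864. None of the 9 genes is on these marker lists.

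**Figure D4:**
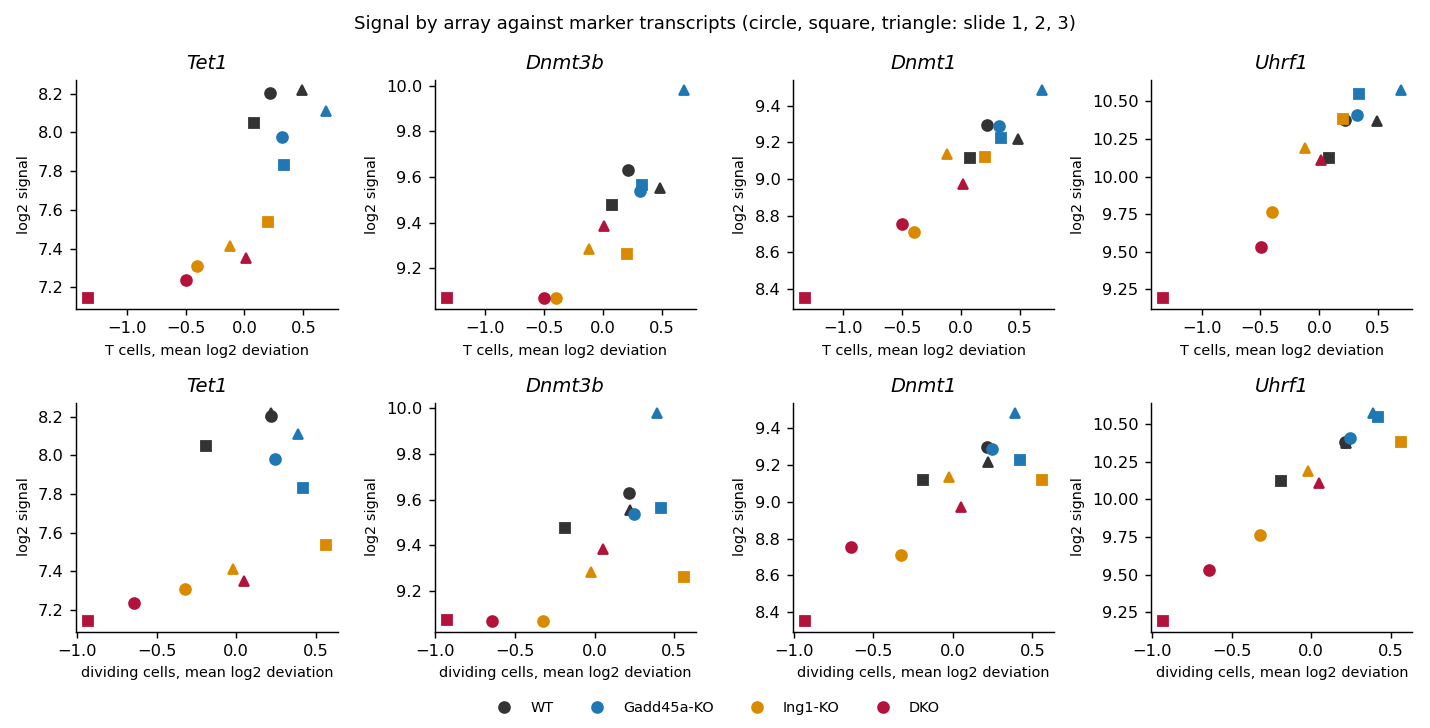
Log2 signal (vertical axes) of Tet1, Dnmt3b, Dnmt1 and Uhrf1 on each of the 12 arrays against the mean log2 deviation of T cell (top) and dividing-cell (bottom) markers (horizontal axes), with colour for genotype and circle, square and triangle for slides 1, 2 and 3. Uhrf1 and Dnmt1 are higher on arrays with a higher T cell mean, with r of 0.962 each over all arrays.

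The Ing1 contrast was fitted again with a marker mean as a covariate, which was chosen after the data had been seen. With the dividing-cell mean, Tet1 was at -0.63 ± 0.11 (limma adjusted p = 0.037) and was the only one of the 9 called, while Uhrf1 moved to -0.20 ± 0.09 and Dnmt1 to -0.22 ± 0.11 (limma adjusted p = 0.259 and 0.327). With the T cell mean, Tet1 was at -0.57 ± 0.12 (limma adjusted p = 0.152), Dnmt3b at -0.23, Dnmt1 at -0.09 ± 0.11 and Uhrf1 at -0.06 ± 0.12, and with the white adipocyte mean Tet1 was at -0.61 (limma adjusted p = 0.0927) and Uhrf1 at -0.18. These fits called 183, 1 and 4 of all features respectively, against 5038 without a covariate. The size of the Tet1 difference stayed between -0.63 and -0.57 under the 3 covariates, and those of Dnmt1 and Uhrf1 between -0.24 and -0.06. Dnmt3b moved from -0.43 to -0.23 with the T cell mean, and Mbd4 turned to 0.02 with the T cell mean and 0.06 with the white adipocyte mean. The marker means themselves differed by genotype, the T cell median being 0.22 in WT, 0.34 in Gadd45a-KO, -0.12 in Ing1-KO and -0.50 in DKO. Such fits therefore cannot tell genotype and cell content apart. The part of such cells in the differences was not tested beyond these values.

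**Figure D5:**
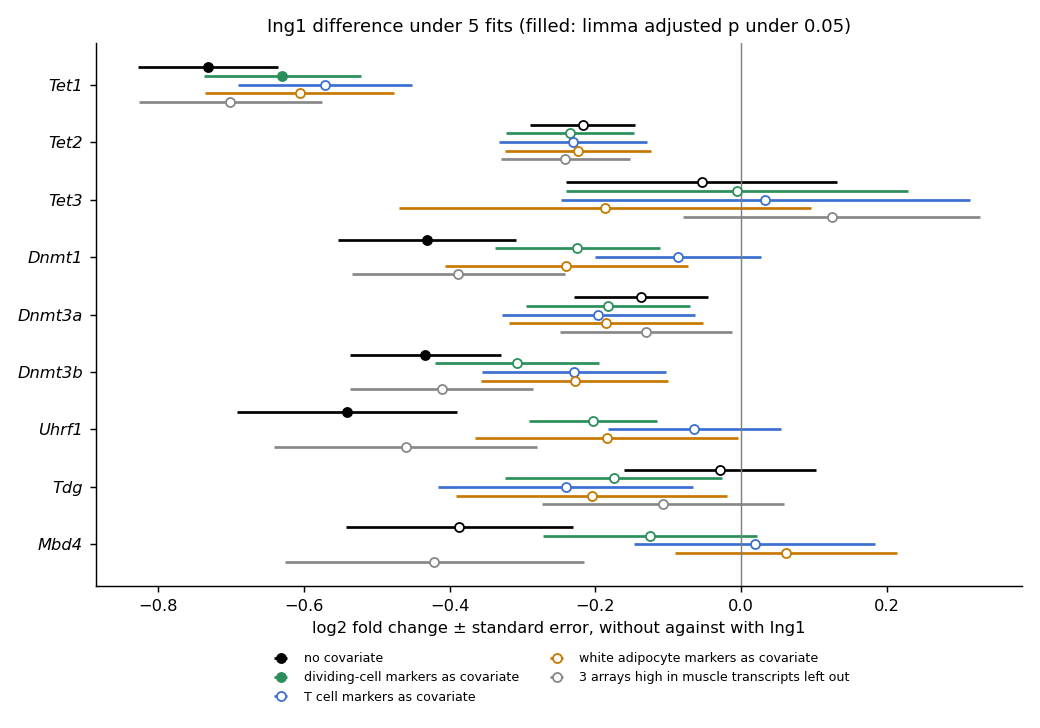
Log2 fold change with its standard error (horizontal axis) of each of the 9 genes without against with Ing1 in 5 fits: all arrays, the 3 muscle-bearing arrays left out, and the dividing-cell, T cell or white adipocyte mean as a covariate. Filled points have a limma adjusted p under 0.05; Tet1 keeps most of its distance from 0 in each, whereas Uhrf1 moves from -0.54 to -0.06 with the T cell mean.

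Among themselves, over 12 arrays, the genes were closest in the pairs Dnmt1 and Uhrf1 (r of 0.961), Uhrf1 and Mbd4 (0.886), Dnmt1 and Dnmt3b (0.873), and Tet1 and Dnmt3b (0.856). Within genotypes r was 0.904 for Dnmt1 and Uhrf1, 0.769 for Dnmt1 and Dnmt3b, and 0.799 for Tet1 and Dnmt3b. Tdg ran apart, at -0.413 with Mbd4.

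Among 15183 named genes, those most like each member over the 12 arrays are given with Pearson's r as a description. Tet1 was most like Izumo4 (0.956), Ing1 itself (0.955) and Adgrb2 (0.955). Genotype means were left in, so the r of Tet1 with Ing1, the deleted gene, restates the group difference given above. Uhrf1 was most like Ccna2, a cyclin of S phase and G2 (0.988), Map3k14, a kinase of NF-kappaB signalling (0.988), and Mcm3, a subunit of the replicative helicase (0.986), and Dnmt1 most like Gmip (0.988), Lsp1, a leukocyte actin-binding protein (0.983), and Ctsw, a protease of cytotoxic lymphocytes (0.982). Mbd4 was closest to Swap70 (0.98), B3gnt2 (0.979) and the leukocyte plastin gene Lcp1 (0.977), and Dnmt3b to Ccdc134 (0.958), Zfp217 (0.957) and Prpf39 (0.957). For Tet2 they were St6galnac4 (0.935), Apol9a (0.933) and Lrrc4b (0.929), for Tet3 Rdh12 (0.959), Prb1 (0.954) and Tbc1d22b (0.933), for Dnmt3a Fam160b1 (0.98), Mcidas (0.92) and Pura (0.915), and for Tdg Mettl21a (0.919), Ccdc174 (0.868) and Txnrd1 (0.859).

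The wider methylation pathway was read from lists by role, for the 6 arrays without against the 6 with Ing1. Of 8 tested partners and cofactor suppliers of TET enzymes, 4 rose and 0 fell, where 6.93% of all features were called higher, with a median of 0.26 against -0.04 over all. They were Idh3a (0.78 ± 0.16), Idh2 (0.45 ± 0.14), D2hgdh (0.41 ± 0.10) and Idh1 (0.40 ± 0.11), with limma adjusted p between 0.0131 and 0.0447. The IDH enzymes make 2-oxoglutarate, the co-substrate of TET enzymes, and D2HGDH clears the D form of hydroxyglutarate, which inhibits them; all 4 are enzymes of general energy metabolism. Their rise went with that of white adipocyte markers given above, and the part of those cells in it was not tested.

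Partners and recruiters of DNA methyltransferases gave 1 of 10 called, Cdca7, a cofactor of the HELLS remodeller, which fell by 0.49 ± 0.15 (limma adjusted p = 0.0429), and the median of the 10 was -0.04; 1 of 10 is no more than the 16% of all features called in this contrast. Mean Cdca7 signal (± SD, n = 3) was 9.71 ± 0.16 in WT, 10.09 ± 0.27 in Gadd45a-KO, 9.63 ± 0.25 in Ing1-KO and 9.20 ± 0.39 in DKO. Of 8 readers of methylated CpG 0 were called by limma, 1 having an unadjusted p under 0.05, Zbtb4 (0.25 ± 0.08, limma adjusted p = 0.0528).

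Among 14 deaminases and base excision genes, the cytidine deaminase Apobec1 fell by 0.54 ± 0.11 (limma adjusted p = 0.0113), the glycosylase Neil3 fell by 0.75 ± 0.23 (limma adjusted p = 0.0488) and the repair polymerase Polb rose by 0.26 ± 0.08 (limma adjusted p = 0.0484), with a median of -0.04; these 3 of 14 stand near the 16% of all features called. Of 9 methyl donor genes, Nnmt, which uses up S-adenosylmethionine to methylate nicotinamide, rose by 0.74 ± 0.16 (limma adjusted p = 0.0168) and no other of the 9 was called, again near that share. Among 8 Gadd45 and Ing genes, Gadd45b, a stress-induced paralogue of Gadd45a, fell by 0.70 ± 0.13 (limma adjusted p = 0.0102) along with Ing1. With Ing1, the deleted gene, set aside, Gadd45b was the only call of this list, near the 16% of all features called. The Gadd45b mean (± SD, n = 3) was 11.79 ± 0.28 in WT, 11.93 ± 0.05 in Gadd45a-KO, 11.36 ± 0.28 in Ing1-KO and 10.95 ± 0.32 in DKO.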

How the data were processed

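Per the file headers, each deposited scanner file holds the intensity of 59305 spots of a one-colour Agilent array, background-subtracted by Feature Extraction 10.7.3.1. The authors' deposited log2 table, for which the submitters' processing notes name limma 3.26.9 and no steps are given in the sources used here, served as an alternative. Spots with outlier flags were left out, log2 of the intensity was taken and spots of a probe were averaged. Dropped were 94 probes that lacked an unflagged spot on some array, and arrays were then scaled to a common 75th percentile. RefSeq accessions named 27509 of 29150 probes (GRCm38.p6 table). Probes well above background on 3 or more arrays were kept, and the brightest was used per gene. One limma 3.58.1 model (R 4.3.3; trend, robust) of the 4 genotypes gave two-sided contrasts with 8 residual degrees of freedom, checked on simulated data. Of 200 simulated 1.5-fold changes, 0% were recovered in Ing1-KO against WT and 0% in DKO against Gadd45a-KO. In DKO against WT 3% were recovered, and over arrays without against arrays with Ing1 27.5%. Of 200 simulated 2-fold changes, 43.5%, 45%, 39.5% and 62.5% were recovered, in the same order. A gene that was not called may therefore still differ by such folds. Each simulation changed only 200 of 31453 features, so its adjusted p was harder to pass than in comparisons with many calls. In DKO against Gadd45a-KO, where 15% of features were called, Dnmt1 was called at 1.56-fold lower. The recovered shares therefore do not describe the comparisons with many calls. P-values measure the spread between pools. Of each pathway list, genes past the threshold or else up to 2 with the smallest p are named; likeness names the top 3. One gene of the list of TET partners is not reported here, and the list's count and median leave it out. The 9 genes and all lists were chosen with earlier results of these data known. Added after seeing the data were the covariates and the fit without the arrays highest in muscle transcripts. The number of arrays limits precision.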

Additional observations from a re-analysis of the deposited data

How the results depend on the processing

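Comparisons were refitted under up to 12 other settings as far as each applied, without each of the 12 arrays in turn and, chosen after seeing the data, without the muscle-bearing arrays. The 3 marker covariates, also chosen then, were fitted for loss of Ing1 alone. This made 27 fits for loss of Ing1, 25 for each pairwise comparison and 24 for loss of Gadd45a and the interaction. Tet1 over arrays without against arrays with Ing1 kept its direction in all 27 fits and its call in 23, Dnmt3b its call in 21, Uhrf1 in 12 and Dnmt1 in 9; Tet1 in DKO against WT was called in 11 of 25. With normexp background correction the median of all features moved to -0.13 for Ing1-KO against WT, to -0.10 for DKO against WT and to 0.12 for the interaction. With 3 arrays a genotype the precision is that of the pools, the outlying-array rule could not be applied, and dim probes carry bounds only. Except where a setting uses fewer arrays or features, the cause of a change was not tested.

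Replicate numbers coincide with slides. Deviations of same-numbered arrays correlated over 0.1 in 9 of 18 pairs (range -0.276 to 0.424), and 9 of 12 arrays were closest to their own number, a hint of a slide effect. Since 9 pairs lay at or under 0.1, the numbers were not taken to pair the samples, and slide was used as a block only here and where it changed a call. With the replicate block, 5 of the 9 genes were called over arrays without against with Ing1 (Tet2 added) and 5 in DKO against Gadd45a-KO (Mbd4 added), with 6367 and 6086 features called, and DKO against WT called 653. It changed no other call of the 9 genes.

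Members called for loss of Ing1 (main count 4) were 2 after median centring, 1 with the dividing-cell covariate and 0 with array column as a block, without the muscle-bearing arrays, or with the T cell or white adipocyte covariate; features called (5038) were 39 with array column, 1 without the muscle arrays, 183, 1 and 4 with the dividing-cell, T cell and adipocyte covariates. In DKO against Gadd45a-KO members called (4) were 0 with only the arrays compared, array column or no muscle arrays, and features (4704) were 3062 without a filter, 502 with only the arrays compared, 3 with array column and 1 without the muscle arrays. In DKO against WT members called (1) were 0 without a filter, with plain empirical Bayes, only the arrays compared, array row, array column, or no muscle arrays, and features (51) were 202 with normexp, 119 in the authors' table, 25 without a filter, 4 with plain empirical Bayes, 1 with only the arrays compared, 3 with array row, 1 with array column and 1 without the muscle arrays. Features called in Ing1-KO against WT (1) were 5 with quantile normalisation, 4 with median centring, 2 with normexp, 2 in the authors' table and 11 with every probe. The single feature in DKO against Ing1-KO became 0 with only the arrays compared, array column or no muscle arrays, and that for loss of Gadd45a 0 with array column or no muscle arrays.

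Leaving out 1 array gave 1 to 5 members and 1901 to 7087 features for loss of Ing1 (fewest without Ing1-KO replicate 1, most features without DKO replicate 3), 0 to 5 and 539 to 7065 in DKO against Gadd45a-KO (fewest without Gadd45a-KO replicate 3), and 0 to 3 and 1 to 3307 in DKO against WT (most without DKO replicate 3). Features called ran from 1 to 16 in Ing1-KO against WT (most without DKO replicate 2), 0 to 3 in DKO against Ing1-KO, 0 to 1 in Gadd45a-KO against WT and 1 to 2 for loss of Gadd45a, with 0 members in each, and were 0 in the interaction.

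Signs that turned belong to differences that were not called. In Gadd45a-KO against WT, Tet2 became 0.0083 with median centring, 0.055 with normexp, 0.033 in the authors' table, 0.016 with array row, 0.0083 with array column and 0.058 without the muscle arrays. In Ing1-KO against WT, Tet3 became 0.019 without the muscle arrays and Tdg 0.022 with median centring. In DKO against WT, Tet3 became 0.037 with array column and Tdg -0.058 without the muscle arrays. In DKO against Gadd45a-KO, Tdg became 0.029 with quantile normalisation, 0.067 with median centring, 0.013 with normexp and 0.039 in the authors' table. In DKO against Ing1-KO, array column gave 0.0056 for Tet2, 0.026 for Dnmt3a and 0.11 for Dnmt3b, and Tet3 became -0.056 without the muscle arrays. For loss of Ing1, Tet3 became 0.019 with median centring, 0.13 with array column, 0.12 without the muscle arrays and 0.034 with the T cell covariate, Tdg 0.007 with quantile normalisation, 0.045 with median centring and 0.0023 in the authors' table, and Mbd4 0.019 and 0.062 with the T cell and adipocyte covariates. For loss of Gadd45a, Tet2 became 0.0069 with normexp, 0.0069 with array column and 0.017 without the muscle arrays, Dnmt3a 0.012, 0.0201, 0.0004, 0.015, 0.056 and 0.03 with median centring, normexp, the authors' table, array row, array column and no muscle arrays, and Mbd4 0.0062 with median centring and 0.045 without the muscle arrays. In the interaction Tet1 became -0.0036 in the authors' table, -0.0032 with array row and -0.042 without the muscle arrays, Dnmt3b 0.0086 with array column and Tdg -0.089 without the muscle arrays.

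Leaving out single arrays also turned signs, with these ranges. In Gadd45a-KO against WT they were -0.084 to 0.058 for Tet2, -0.072 to 0.13 for Dnmt3a, -0.0021 to 0.22 for Dnmt3b and -0.019 to 0.14 for Tdg. In Ing1-KO against WT they were -0.39 to 0.059 for Tet3, -0.14 to 0.001 for Dnmt3a and -0.13 to 0.027 for Tdg. In DKO against WT they were -0.34 to 0.11 for Tet3 and -0.058 to 0.28 for Tdg, and in DKO against Gadd45a-KO -0.0007 to 0.24 for Tet3 and -0.12 to 0.21 for Tdg. In DKO against Ing1-KO they were -0.19 to 0.19 for Tet3, -0.14 to 0.022 for Dnmt3b and -0.006 to 0.33 for Tdg, and for loss of Ing1 -0.14 to 0.083 for Tet3 and -0.086 to 0.081 for Tdg. For loss of Gadd45a they were -0.07 to 0.0017 for Tet2, -0.23 to 0.022 for Tet3, -0.069 to 0.032 for Dnmt3a, -0.016 to 0.093 for Dnmt3b and -0.13 to 0.089 for Mbd4, and in the interaction -0.064 to 0.076 for Tet1, -0.11 to 0.0299 for Tet2, -0.201 to 0.007 for Dnmt3a and -0.068 to 0.27 for Tdg.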
